A study of Rattus norvegicus with 6 samples.

Results

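The 40 genes described here make, sense and move cholesterol and make fatty acids, and most of them are controlled by the SREBP transcription factors. They were taken by symbol from a count table of 32161 genes in primary rat cells. The cells came from the surface layer of articular cartilage, which borders the joint space and makes its lubricant. They were kept without flow (static, 0 dyne/cm², 3 libraries) or under fluid shear stress, the drag of flowing fluid on the cell surface (shear, 20 dyne/cm², 3 libraries). The sources used here do not give strain, age, length of the flow or whether replicate libraries stem from different animals or cultures. The p-values therefore rest on counting error and on how far these libraries spread, and that spread may be technical. All 40 members had enough counts to be tested.

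Cells adjust their sterol supply through a feedback loop. When sterol in the endoplasmic reticulum is low, the escort protein SCAP carries SREBP precursors to the Golgi, where proteases free the active factor; when sterol is high, INSIG proteins hold SCAP and SREBP back. SREBP-2, from Srebf2, mainly drives genes of cholesterol synthesis and uptake, and SREBP-1, from Srebf1, mainly those of fatty acid synthesis, both together with the factors NF-Y and Sp1. Liver X receptors, such as the one encoded by Nr1h2, sense oxidised sterols and drive efflux genes such as Abca1 and Abcg1.

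Under shear 17 of the 40 genes rose and 0 fell (edgeR adjusted p under 0.05), where over all 13945 genes tested 10.8% rose and 7.71% fell. The median log2 fold change, shear over static, was 0.11 over the members and -0.01 over all genes tested. The groups did not overlap for 19 of the 40 members, with shear above static in 18, against 32.7% of all genes tested. Of the 19 sterol enzyme genes 11 rose, led by Idi1 (0.88 on the log2 scale), Msmo1 (0.75) and Hmgcs1 (0.60), together with the feedback gene Insig1 (0.90) and the sterol carrier gene Stard4 (0.55). Of 11 genes of the fatty acid arm 3 rose, and 0 of 2 efflux genes passed the test. The main fit gave 1508 higher and 1075 lower genes, and another library scaling, RLE factors, gave 1535 and 1053. The balance moved to 1275 higher and 1364 lower with upper-quartile factors and to 1124 and 1730 with library totals alone. With RLE factors, upper-quartile factors and library totals alone, 17, 17 and 15 members rose and 0 fell.

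**Figure D1:**
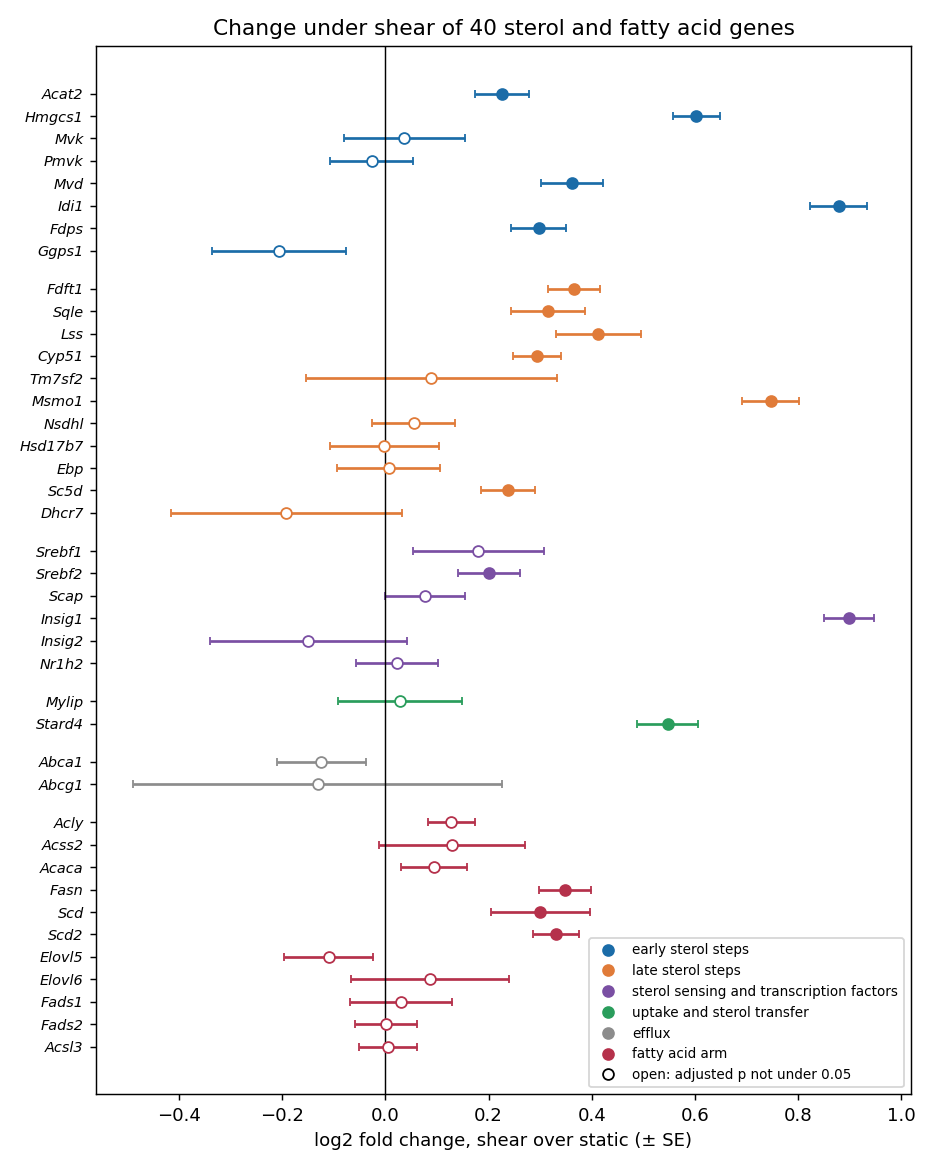
Log2 fold change, shear over static, with its SE for each of the 40 genes, ordered along the pathway and coloured by arm; filled points had an edgeR adjusted p under 0.05. The 17 filled points lie right of 0, from 0.20 (Srebf2) to 0.90 (Insig1).

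To show the regulatory sequence beside the data, the promoters of the 4 members with the smallest p among the 32 that a RefSeq promoter table (GRCr8) holds are printed 5′ to 3′ on the gene's strand, from 250 bases before to 50 after the start of the gene. They were chosen after a search for the sterol regulatory element had found no member to print. Capitals mark CCAAT, the core of the box that NF-Y binds, or ATTGG, the same box on the opposite strand.
Insig1, chr4:8057720-8058019, minus strand: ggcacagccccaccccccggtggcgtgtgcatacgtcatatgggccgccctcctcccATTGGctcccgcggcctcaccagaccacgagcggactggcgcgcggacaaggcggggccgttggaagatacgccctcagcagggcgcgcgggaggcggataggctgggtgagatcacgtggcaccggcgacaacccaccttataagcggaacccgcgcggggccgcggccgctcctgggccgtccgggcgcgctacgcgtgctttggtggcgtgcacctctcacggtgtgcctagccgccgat
Idi1, chr17:66547475-66547774, minus strand: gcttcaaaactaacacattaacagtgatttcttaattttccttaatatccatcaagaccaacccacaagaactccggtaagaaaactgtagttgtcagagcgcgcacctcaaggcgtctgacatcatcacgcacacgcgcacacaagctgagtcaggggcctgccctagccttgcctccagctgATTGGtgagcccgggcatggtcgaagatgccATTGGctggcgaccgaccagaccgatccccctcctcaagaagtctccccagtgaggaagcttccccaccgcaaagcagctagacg
Msmo1, chr16:29746863-29747162, plus strand: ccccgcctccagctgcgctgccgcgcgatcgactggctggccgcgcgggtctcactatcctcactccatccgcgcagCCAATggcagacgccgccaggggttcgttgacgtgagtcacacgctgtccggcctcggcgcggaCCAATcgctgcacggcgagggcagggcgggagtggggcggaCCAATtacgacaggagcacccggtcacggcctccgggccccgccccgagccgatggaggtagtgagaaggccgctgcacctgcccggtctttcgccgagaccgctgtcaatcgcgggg
Hmgcs1, chr2:53382054-53382353, plus strand: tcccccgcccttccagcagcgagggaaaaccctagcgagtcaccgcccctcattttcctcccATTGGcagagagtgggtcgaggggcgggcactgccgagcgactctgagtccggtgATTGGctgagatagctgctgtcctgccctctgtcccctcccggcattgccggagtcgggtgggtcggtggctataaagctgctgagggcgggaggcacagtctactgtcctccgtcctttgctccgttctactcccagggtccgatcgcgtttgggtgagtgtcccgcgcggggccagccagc
Insig1 has 1 such box, whose first base lies 193 bases before the start. Idi1 has 2, at 66 and 35 bases before it, Hmgcs1 has 2, at 188 and 133, and Msmo1 has 3, at 173, 109 and 68. The box was found on either strand in 24 of the 32 member promoters (75.0%), in 37.5% of all 33469 windows of the table and in 37.4% of the 10617 windows of tested genes. Of the members that rose 10 of 13 had it, and of those that did not pass 14 of 19.

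The GC box GGGCGG, a binding site of Sp1, was also in 24 of the 32 member promoters on either strand, against 33.1% of all windows and 61.6% of those of tested genes. The sterol regulatory element, searched as TCACNCCAC on both strands, was in 0 of the 32 member promoters and in 1.12% of all windows. At that share few matches would be expected among 32 promoters in any case. Elements outside the windows, or of another form than those searched here, would not have been found. A shorter form that lies within it, CACNCCAC, was tried after that result and was in 5 member promoters, those of Insig1, Acat2, Ebp, Elovl5 and Fads1, and in 5.8% of all windows. Of these 5 genes Insig1 and Acat2 rose. The members not matched in the table were Abcg1, Acaca, Elovl6, Fasn, Fdft1, Pmvk, Sqle and Stard4.

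Library totals lay between 33342775 and 33979479 counts, and 2583 genes (18.5%) were called in either direction. The first principal component, with 41.8% of the variance, separated the groups. Values are given in CPM, a gene's share of its library's total after scaling with TMM factors, and levels of different genes are compared as CPM per kilobase of exon. The sizes of rises and falls are log2 fold changes, shear over static. As a check of the labelled cells, Prg4, the lubricin gene of the superficial layer, lay at 18.7, 20.2 and 17.5 CPM in static and 23.0, 21.4 and 22.9 CPM in shear libraries, while 6 of the 16 superficial zone and cartilage markers (Erg, Sox6, Comp, Matn3, Col2a1 and Col9a1) stayed under 1 CPM in every library. Of 13 tested markers of that list 4 rose (30.8%) and 1 fell (7.69%), against 10.8% and 7.71% of all genes tested. Sox9 (1.26), Abi3bp (0.41), Prg4 (0.25) and Thbs4 (0.17) rose, and Acan fell (-0.34). The 16 markers summed to 789.6 to 802.9 CPM in static and 795.9 to 828.8 CPM in shear libraries. Most of that sum was Col11a1, with means of 586.5 CPM in static and 581.9 CPM in shear libraries. Of 8 adipocyte markers 7 were under 1 CPM in every library, and their summed level was 2.31 to 2.46 CPM in static and 2.27 to 2.55 CPM in shear libraries. Of 8 macrophage markers 5 were under 1 CPM in every library, with sums of 8.03 to 9.50 CPM and 7.93 to 9.44 CPM. Skeletal muscle markers moved in part: of 7 tested of 10 listed, 5 fell. The 10 summed to 64.7 to 66.8 CPM in static and 36.2 to 39.8 CPM in shear libraries. The largest part of that fall was Myh3, with means of 21.9 CPM in static and 1.68 CPM in shear libraries (-3.71). Tnnt3 (-0.68), Tnnc2 (-1.36), Acta1 (-1.26) and Mylpf (-1.69) also fell, from static means of 1.86 to 6.65 CPM. Myh4 (0.10) and Des (-0.05), both more abundant than these in static libraries, did not pass. Of 8 endothelial markers 3 were tested and Kdr fell, with sums of 9.85 to 11.99 CPM and 5.24 to 9.22 CPM. The part of the cartilage, muscle and endothelial markers in the results was not tested, and in bulk RNA fewer cells of a type and less RNA per cell cannot be told apart.

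The early steps of the route run from acetyl-CoA to the isoprenoid diphosphates. Of their 8 genes 5 rose and 0 fell (median log2 fold change 0.26), and the 2 steps between them that did not pass were the kinases of mevalonate. Idi1, whose enzyme interconverts the 2 isoprene building blocks (chromosome 17, 57976268 to 57984036 in the count table's coordinates, whose build is not given), had 123, 124 and 135 CPM in static and 219, 255 and 228 CPM in shear libraries. All shear libraries lay above all static ones, as they did for 16.7% of the genes tested. Its log2 fold change was 0.88 (edgeR adjusted p = 1.5e-11, SE 0.06), 48th of 13945 genes by p and 163rd by size of rise. Exons of Wdr37 on the other strand cover 3.56% of its exon length, and whether the counting used strand is not given.

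Hmgcs1, which makes the HMG-CoA that feeds the pathway (chromosome 2, 52431601 to 52445055), had 244, 237 and 241 CPM in static and 348, 378 and 369 CPM in shear libraries. No static library reached a shear library, and the log2 fold change was 0.60 (edgeR adjusted p = 3.9e-10, SE 0.05). Mvd, the decarboxylase that makes isopentenyl diphosphate, had 37.5, 38.1 and 37.2 CPM in static and 52.2, 47.2 and 45.7 CPM in shear libraries. Its static libraries lay within 1 CPM of each other, all under the lowest shear library, and it rose by 0.36 (edgeR adjusted p = 7.9e-05, SE 0.06). Fdps, which makes farnesyl diphosphate, went from 133 ± 7.32 to 164 ± 10.7 CPM (mean ± SD, n = 3 each), and its log2 fold change was 0.30 (edgeR adjusted p = 2.2e-04, SE 0.05). Acat2, the thiolase that joins 2 acetyl-CoA, went from 61.8 ± 2.31 to 72.3 ± 1.90 CPM (mean ± SD, n = 3 each), the smallest rise of the early steps at 0.23 (edgeR adjusted p = 0.0027, SE 0.05).

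The mevalonate kinase gene Mvk had 7.81 ± 0.28 CPM in static and 8.02 ± 1.43 CPM in shear libraries (mean ± SD, n = 3 each) and the phosphomevalonate kinase gene Pmvk 23.2 ± 1.42 CPM in static and 22.8 ± 2.71 CPM in shear libraries (mean ± SD, n = 3 each). Their groups overlapped. The log2 fold changes were 0.04 (edgeR adjusted p = 0.88, SE 0.12) and -0.03 (edgeR adjusted p = 0.88, SE 0.08). Their 95% intervals were -0.21 to 0.28 and -0.19 to 0.14, with upper ends below the lower end of the interval of Hmgcs1 (0.51). The interval of Mvk overlaps those of Mvd (lower end 0.24), Fdps (0.19) and Acat2 (0.12), and that of Pmvk overlaps that of Acat2. Ggps1, whose product geranylgeranyl diphosphate anchors small GTPases to membranes and leaves the route to sterols, had 5.01, 4.63 and 5.17 CPM in static and 4.496, 4.20 and 4.14 CPM in shear libraries. Its shear libraries all lay below its static ones, as for 15.9% of the genes tested, but it did not pass the test, with a log2 fold change of -0.21 (edgeR adjusted p = 0.31, SE 0.13).

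**Figure D2:**
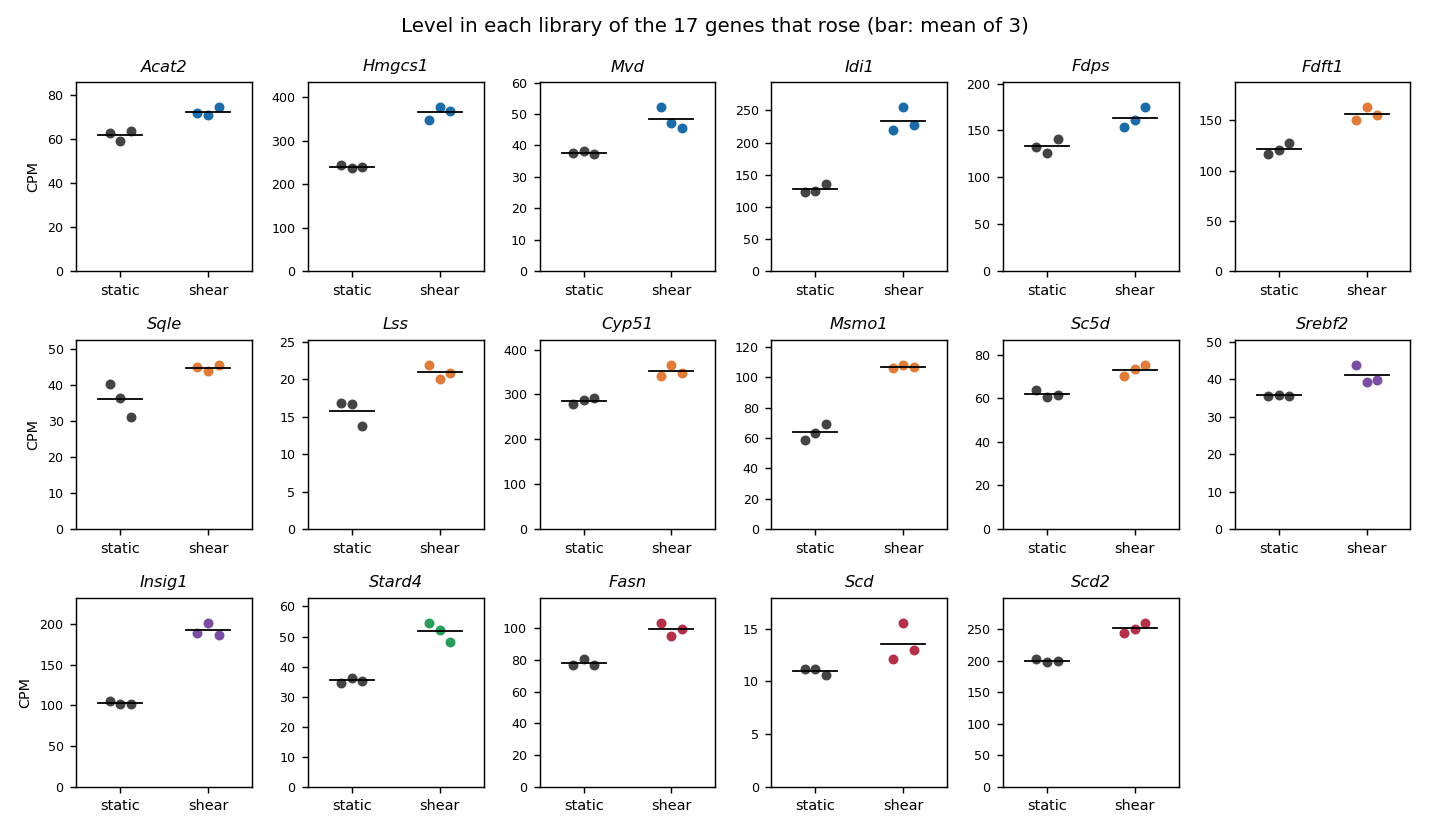
CPM in each library of the 17 genes that rose, static in grey and shear in the colour of the arm, with the mean of 3 as a bar and each axis starting at 0. In every panel the 3 shear points lie above the 3 static points; the widest gap relative to the static mean is that of Insig1 (103 to 192 CPM).

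In the late steps, from squalene to cholesterol, 6 of 11 genes rose and 0 fell (median log2 fold change 0.24). Msmo1, which removes methyl groups from the sterol ring (chromosome 16, 26859397 to 26875973), had 58.7, 63.3 and 69.4 CPM in static and 106, 108 and 107 CPM in shear libraries. The shear libraries lay within 3 CPM of each other, far above the static ones. Its log2 fold change was 0.75 (edgeR adjusted p = 2.9e-10, SE 0.06). Cyp51, which acts earlier by demethylating lanosterol, was the most abundant of the 40 genes per length in static cells at 85.7 CPM per kilobase. It rose less than Msmo1. Cyp51 had 279, 287 and 293 CPM in static and 340.4, 366 and 347 CPM in shear libraries, a log2 fold change of 0.29 (edgeR adjusted p = 3.7e-05, SE 0.05), and its interval (0.20 to 0.39) lies wholly below that of Msmo1 (0.63 to 0.86).

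Fdft1, squalene synthase and the first enzyme committed to sterols, had 116, 120.3 and 128 CPM in static and 151, 163 and 155 CPM in shear libraries. All shear libraries were the higher ones, and it rose by 0.37 (edgeR adjusted p = 5.8e-06, SE 0.05). Sqle, squalene epoxidase and a control point of the late route, had 40.3, 36.5 and 31.1 CPM in static and 44.9, 43.7 and 45.6 CPM in shear libraries. Its static libraries spread more widely than its shear libraries without reaching them, and its log2 fold change was 0.32 (edgeR adjusted p = 0.0022, SE 0.07). Lss, which closes the ring to lanosterol, had 16.8, 16.6 and 13.7 CPM in static and 21.9, 20.0 and 20.8 CPM in shear libraries, with the third static library the lowest as for Sqle, and rose by 0.41 (edgeR adjusted p = 7.0e-04, SE 0.08). Sc5d, a sterol desaturase near the end of the route, went from 62.1 ± 1.54 to 73.2 ± 2.53 CPM (mean ± SD, n = 3 each), and its log2 fold change was 0.24 (edgeR adjusted p = 0.0016, SE 0.05).

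The other 5 late genes did not pass. Nsdhl lay at 15.3 ± 0.58 CPM in static and 15.9 ± 1.16 CPM in shear libraries, Hsd17b7 at 8.04 ± 0.625 CPM in static and 8.02 ± 0.465 CPM in shear libraries and Ebp at 8.65 ± 0.445 CPM in static and 8.69 ± 0.358 CPM in shear libraries (mean ± SD, n = 3 each). All 3 had overlapping groups. Nsdhl and Hsd17b7, which act with Msmo1 in removing methyl groups, had log2 fold changes of 0.05 (edgeR adjusted p = 0.71, SE 0.08) and -0.0027 (edgeR adjusted p = 0.99, SE 0.11). Ebp, a sterol isomerase, had one of 0.0067 (edgeR adjusted p = 0.98, SE 0.10). The 95% intervals of these 3 genes were -0.11 to 0.22, -0.22 to 0.22 and -0.20 to 0.21, and all end below the interval of Msmo1. All 3 overlap the intervals of Sc5d (lower end 0.13), Sqle (0.17) and Cyp51 (0.20). The reductase genes Tm7sf2 and Dhcr7 lay at 1.53 ± 0.421 CPM in static and 1.62 ± 0.279 CPM in shear libraries and at 1.99 ± 0.172 CPM in static and 1.74 ± 0.501 CPM in shear libraries (mean ± SD, n = 3 each). The log2 fold change was 0.09 (edgeR adjusted p = 0.86, SE 0.24) for Tm7sf2 and -0.19 (edgeR adjusted p = 0.63, SE 0.22) for Dhcr7, which ranged from -0.44 without shear replicate 1 to -0.028 without shear replicate 3. Their intervals, -0.41 to 0.59 and -0.65 to 0.27, were the widest among the sterol enzymes. Exons of Vps51 on the same strand cover 20.6% of the exon length of Tm7sf2, and exons of a gene on the other strand 13% of that of Hsd17b7.

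Among the 19 sterol enzymes the genes that rose were mostly the abundant ones. The 11 that rose had static levels of 3.48 to 85.7 CPM per kilobase with a median of 34.5, and the 8 that did not pass 0.672 to 21.2 with a median of 3.58. The median log2 fold change of these 8 was 0.0020, and 4 of them had a value above 0. Spearman's rho between static level per kilobase and log2 fold change was 0.667 over the 19 genes, which share the same 6 libraries and a test that is more sensitive for high counts. Over the 11 genes of the fatty acid arm it was -0.127, and over all 40 members 0.598. In the fatty acid arm the median static level was 8.55 CPM per kilobase for the 3 genes that rose and 9.01 for the 8 that did not pass. Lss rose at 3.48 CPM per kilobase, while Pmvk, at 21.2, did not pass. Summed over the 19 genes, the level was 1243, 1242 and 1285 CPM in static and 1651, 1755 and 1717 CPM in shear libraries, so that the shear mean was 35.9% higher. The early steps made up 636 ± 15.8 CPM of it in static and 918 ± 32.6 CPM in shear libraries, and the late steps 621 ± 11.2 and 789 ± 20.6 CPM (mean ± SD, n = 3 each).

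**Figure D3:**
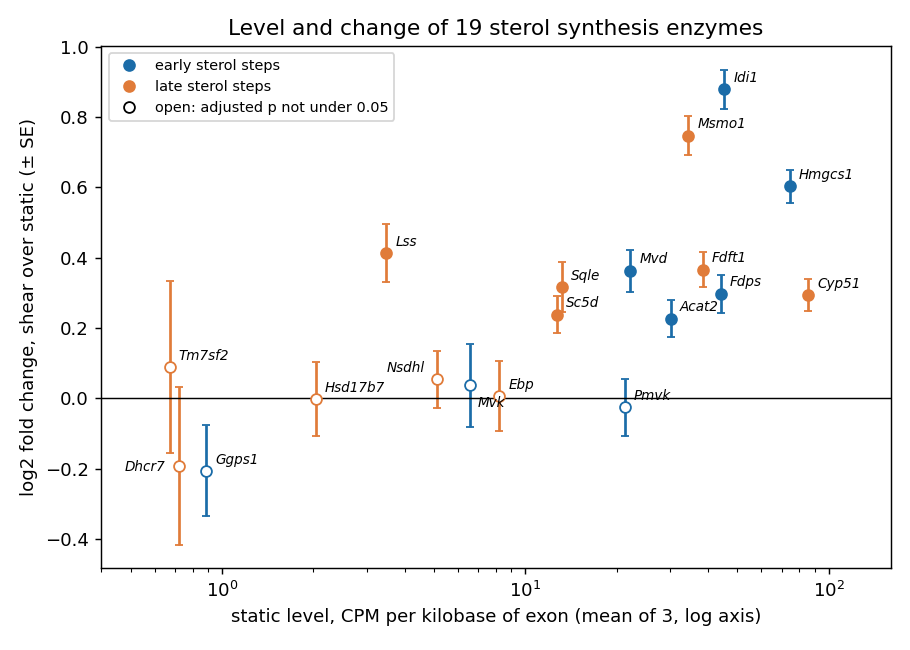
Static level in CPM per kilobase (log axis, mean of 3) against log2 fold change with its SE for the 19 sterol enzyme genes, early steps in blue and late steps in orange, open where the adjusted p was not under 0.05. The 8 open points lie between -0.21 and 0.09 on the vertical axis, and the 3 highest points (Idi1, Msmo1, Hmgcs1) lie above 30 CPM per kilobase.

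Of the 6 genes that sense sterols or act as transcription factors, 2 rose (33.3%) and 0 fell, against 10.8% and 7.71% of all genes tested. Insig1, itself a target of SREBP in liver and cultured cells, encodes the anchor that holds SCAP back (chromosome 4, 342302 to 350515) and had 105, 102 and 102 CPM in static and 189, 202 and 186 CPM in shear libraries. Every shear library was at least 80 CPM above every static one. The log2 fold change was 0.90 (edgeR adjusted p = 8.4e-13, SE 0.05), the highest of the 40 members and 22nd of all genes by p. Its relative Insig2, which is not driven by SREBP in the same way, had 2.32, 3.27 and 2.17 CPM in static and 2.29, 2.21 and 2.49 CPM in shear libraries. The groups overlapped, and the log2 fold change was -0.15 (edgeR adjusted p = 0.66, SE 0.19), with a 95% interval of -0.54 to 0.24. Within each library the log2 ratio of Insig1 to Insig2 per kilobase was 4.22, 3.67 and 4.27 in static and 5.08, 5.22 and 4.93 in shear cells. The groups did not overlap, and the difference of 1.02 had an exact two-sided permutation p of 0.1, the smallest that 3 against 3 libraries allow, and an adjusted p of 0.4 over the 4 ratios compared.

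Srebf2 had 35.5, 35.9 and 35.6 CPM in static and 43.8, 39.4 and 39.8 CPM in shear libraries. The static libraries differed by under 1 CPM and the first shear library stood above the other two, which were still higher than the static ones. It rose by 0.20 (edgeR adjusted p = 0.02, SE 0.06), and the call ended without static replicate 1 (edgeR adjusted p = 0.057), without shear replicate 1 (0.091) and with library totals alone (0.088). Srebf1 had 6.13, 5.33 and 6.82 CPM in static and 7.71, 7.14 and 5.86 CPM in shear libraries, overlapping groups and a log2 fold change of 0.18 (edgeR adjusted p = 0.38, SE 0.13). That value ranged from 0.0957 without static replicate 2 to 0.287 without shear replicate 3. Exons of Rai1 on the other strand cover 13.3% of its exon length. The log2 ratio of Srebf2 to Srebf1 per kilobase was 2.38 ± 0.19 in static and 2.40 ± 0.16 in shear libraries (mean ± SD, n = 3 each, exact permutation p = 0.9). Scap lay at 17.5 ± 1.19 CPM in static and 18.5 ± 0.989 CPM in shear libraries, and Nr1h2 at 16.3 ± 1.10 CPM in static and 16.6 ± 0.761 CPM in shear libraries (mean ± SD, n = 3 each). Scap, the escort, and Nr1h2, the liver X receptor beta gene, had log2 fold changes of 0.08 (edgeR adjusted p = 0.57, SE 0.08) and 0.02 (edgeR adjusted p = 0.9, SE 0.08), with overlapping groups. The 6 genes summed to 181 ± 3.22 CPM in static and 277 ± 8.83 CPM in shear libraries (mean ± SD, n = 3 each), of which Insig1 made up the greater share in both.

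Of the genes for uptake and transfer, Stard4, which carries cholesterol between membranes inside the cell, had 34.6, 36.3 and 35.3 CPM in static and 54.6, 52.3 and 48.2 CPM in shear libraries. The groups did not overlap, and it rose by 0.55 (edgeR adjusted p = 2.0e-07, SE 0.06), 214th of all genes by p. Mylip encodes the ligase IDOL, which marks lipoprotein receptors for breakdown and is induced by liver X receptors. It had 6.77, 6.37 and 6.30 CPM in static and 5.78, 7.60 and 6.46 CPM in shear libraries and a log2 fold change of 0.03 (edgeR adjusted p = 0.92, SE 0.12). Both efflux pump genes had values below 0 that did not pass the test. Abca1, which loads cholesterol onto apolipoprotein A-I, had 13.7, 14.9 and 16.4 CPM in static and 13.6, 13.2 and 14.6 CPM in shear libraries, overlapping groups and a log2 fold change of -0.12 (edgeR adjusted p = 0.37, SE 0.09), with a 95% interval of -0.30 to 0.05. Abcg1 was the lowest of the 40 genes at 0.639 ± 0.117 CPM in static and 0.584 ± 0.145 CPM in shear libraries (mean ± SD, n = 3 each), and its interval of -0.87 to 0.61 allows a change either way.

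In the fatty acid arm 3 of 11 genes rose and 0 fell (median log2 fold change 0.09). Fasn, the synthase that builds palmitate (chromosome 10, 109987735 to 110005901), had 76.7, 80.6 and 77.2 CPM in static and 104, 95.1 and 99.9 CPM in shear libraries. Shear exceeded static in every pair of libraries, and it rose by 0.35 (edgeR adjusted p = 1.4e-05, SE 0.05). Scd2, a desaturase that makes monounsaturated fatty acids, had 202, 198 and 199 CPM in static and 244, 250.01 and 261 CPM in shear libraries, with all shear libraries above all static ones, and rose by 0.33 (edgeR adjusted p = 6.2e-06, SE 0.05). Its close relative Scd was lower, at 11.1, 11.2 and 10.6 CPM in static and 12.1, 15.6 and 12.97 CPM in shear libraries. The second shear library stood above the others, and the rise of 0.30 (edgeR adjusted p = 0.03, SE 0.10) did not keep its call throughout: the edgeR adjusted p was 0.21 when shear replicate 2 was left out, 0.061 and 0.09 without static replicate 1 or 3, and 0.065 with library totals alone. How reads that match both Scd genes were counted is not given, so the split between them is uncertain.

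The enzymes that supply and commit the carbon did not pass. Acly, which makes cytosolic acetyl-CoA for both the sterol and the fatty acid route, had 147, 153 and 152 CPM in static and 170.1, 162 and 162 CPM in shear libraries. Its shear libraries all lay above its static ones, and the log2 fold change of 0.13 (edgeR adjusted p = 0.056, SE 0.05) missed the threshold; with DESeq2 the adjusted p was 0.034 and with halved counts in edgeR 0.046. Acaca lay at 34.8 ± 2.36 CPM in static and 37.1 ± 1.44 CPM in shear libraries, and Acss2 at 4.28 ± 0.42 CPM in static and 4.68 ± 0.642 CPM in shear libraries (mean ± SD, n = 3 each). Acaca, the carboxylase that commits acetyl-CoA to fatty acids, and Acss2, which makes acetyl-CoA from acetate, had log2 fold changes of 0.09 (edgeR adjusted p = 0.35, SE 0.06) and 0.13 (edgeR adjusted p = 0.6, SE 0.14). The genes that lengthen and desaturate long fatty acids had log2 fold changes of -0.11 (Elovl5), 0.09 (Elovl6), 0.03 (Fads1) and 0.0008 (Fads2), and the acyl-CoA synthetase gene Acsl3 one of 0.0046, with edgeR adjusted p from 0.44 to 0.99. Elovl5 had 14.2, 13.4 and 15.2 CPM in static and 13.6, 12.2 and 13.8 CPM in shear libraries, and Elovl6 3.55, 3.27 and 3.06 CPM in static and 3.42, 3.83 and 3.24 CPM in shear libraries. Fads1 had 14.2, 10.8 and 12.8 CPM in static and 12.1, 12.4 and 14.2 CPM in shear libraries, and Fads2 32.2, 34.4 and 33.2 CPM in static and 33.4, 33.5 and 32.9 CPM in shear libraries. The groups of these 4 genes overlapped, as did those of Acsl3, which had 42.4, 41.3 and 41.2 CPM in static and 41.6, 43.4 and 40.3 CPM in shear libraries. The 95% intervals of Fads2 (-0.12 to 0.12) and Acsl3 (-0.11 to 0.12) lie below the lower end of that of Fasn (0.24). Both overlap the interval of Scd, whose lower end is 0.10. Summed over the 11 genes, the level was 581 to 587 CPM in static and 669 to 684 CPM in shear libraries, 15.7% higher in the shear mean. A difference between the sterol and the fatty acid arm was not tested.

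**Figure D4:**
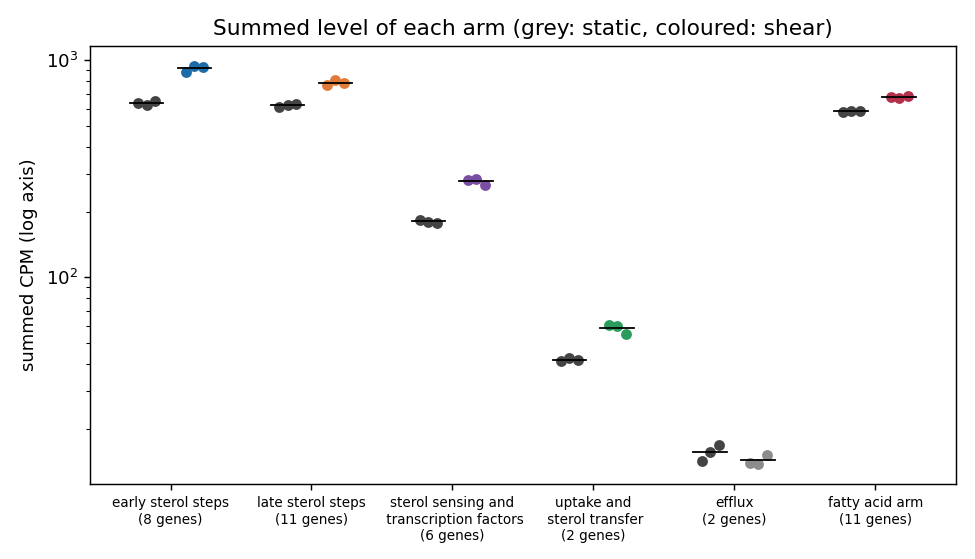
Summed CPM of the genes of each arm in each library (log axis), static in grey and shear in colour, with the mean of 3 as a bar. Static and shear points are apart in every arm but efflux, where the sums of 14.3 to 16.95 CPM and 13.9 to 15.2 CPM overlap. A sum can be carried by few genes. The uptake sum is mostly Stard4 (means of 35.4 and 51.7 CPM), with Mylip at 6.48 and 6.61 CPM. In the fatty acid arm 7 of 11 genes had overlapping groups.

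Cyp51 and Hmgcs1 stood at the top in static cells, at 85.7 and 74.6 CPM per kilobase, where they differed by more than the sum of their SDs. Under shear their means were 105 and 113, which differed by less than that sum. Idi1 (45.3), Fdps (44.2) and Insig1 (42.6) followed in static cells, and neither Idi1 and Fdps nor Fdps and Insig1 differed by more than the sum of their SDs. At the bottom were Ggps1, Dhcr7, Tm7sf2 and Abcg1, all under 1 CPM per kilobase in both groups.

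Genes around the pathway, from 5 lists of textbook members outside the 40, were read in the same fit. Of 97 listed genes 89 were tested, of which 15 (16.9%) rose and 2 (2.25%) fell (median log2 fold change -0.0015), against 10.8% and 7.71% of all genes tested. The counts of 1 of 15, 2 of 15 and 1 of 13 that rose in the branch, processing and liver X receptor lists (6.67%, 13.3% and 7.69%) lie near that share and are given as a description. Of 15 other genes of sterol and isoprenoid branches Pdss1 rose, an enzyme of the side chain of coenzyme Q, by 0.34 (edgeR adjusted p = 0.011, SE 0.09), and 0 fell. Of 15 genes that process SREBP or degrade it and its partners 2 rose and 0 fell. These were Fbxw7, a ligase subunit that marks nuclear SREBP for breakdown, from 26.1 ± 0.559 to 37.5 ± 2.36 CPM (mean ± SD, n = 3 each), by 0.52 (edgeR adjusted p = 1.1e-06, SE 0.06), and the ligase gene Rnf139, by 0.34 (edgeR adjusted p = 0.013, SE 0.10).

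Of 18 genes of sterol transport and the lysosome 4 rose (22.2%) and 1 fell (5.56%), against 10.8% and 7.71% of all genes tested. Lrp8, a receptor of the low-density lipoprotein receptor family, had 118, 127 and 123 CPM in static and 165, 168 and 162 CPM in shear libraries. The groups did not overlap, and it rose by 0.42 (edgeR adjusted p = 3.1e-07, SE 0.05). Osbp, which moves sterol between the endoplasmic reticulum and the Golgi, and Npc1, which exports cholesterol from lysosomes, rose by 0.28 and 0.22 on the log2 scale (edgeR adjusted p = 2.8e-04 and 0.015). Stard5, from the same subfamily of sterol carriers as Stard4, had 4.72, 4.08 and 4.48 CPM in static and 2.68, 2.67 and 2.64 CPM in shear libraries. All shear libraries were the lower ones, and the log2 fold change was -0.73 (edgeR adjusted p = 8.4e-04, SE 0.15). The other gene that rose was Gramd1c, named after its value was seen (0.71). Of 13 tested genes tied to liver X receptors and oxysterols, Apoe rose by 0.22 (edgeR adjusted p = 0.014, SE 0.06) and Nr1h3, the liver X receptor alpha gene, fell, with a log2 fold change of -0.55 (edgeR adjusted p = 0.028, SE 0.17), its means and SDs being 3.59 ± 0.541 CPM in static and 2.45 ± 0.39 CPM in shear libraries (n = 3 each).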

How the data were processed

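The authors deposited 1 table of raw counts per gene and library with summed exon lengths, per the file headers. The mRNA libraries kept strand, per the labels' protocols. Tools named in the submitters' processing notes are edgeR 3.12.1, Subread 1.5.1, featureCounts and Trimmomatic 0.36. The sources used here do not give the aligner, build, annotation or strand setting. Of counts from 1 to 20, 71.4% to 72.2% were even, so both reads of a pair may have been counted, and intervals from counting error would be too narrow; only the replicate spread was used.

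Columns were matched to samples by the column names in the labels, and 6 libraries were fitted as 2 groups of 3. Genes were filtered with filterByExpr (minimum count 10), scaled with TMM and tested with edgeR 4.0.16 in R 4.3.3 (two-sided quasi-likelihood test, Benjamini-Hochberg over 13945 genes, threshold 0.05). SEs were obtained from the log2 fold change and the F statistic, and 95% intervals use the test's degrees of freedom. The biological coefficient of variation was 5.45%. Libraries of one group differed by more than sampling noise (chi-square over degrees of freedom 5.57 to 8.18), and none was merged. The fit was tested on simulated data. Alternatives were other scalings, no filter, DESeq2 1.42.0, limma-voom (limma 3.58.1), a replicate block, halved counts and leaving out each library.

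All 40 members are named; from each further list, up to 4 genes past the threshold whose mean log2 CPM reached 1, by smallest p. Members and lists were chosen with earlier results of these data known. Promoters come from RefSeq (GRCr8), which is not taken to be the build of the table.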

Additional observations from a re-analysis of the deposited data

How the results depend on the processing

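Of the 17 members that rose, 15 were called in the same direction under all 14 alternatives to the fit; the exceptions were Srebf2 and Scd, whose lost calls stand in the report. Leaving out 1 library gave 15 to 17 members higher and 0 lower, and 1 to 2 among the sterol sensing genes, where library totals alone also gave 1. With library totals alone 1730 genes were lower overall. The share of called genes that were higher was 58.4%, and 59.3%, 48.3% and 39.4% with RLE factors, upper-quartile factors and library totals alone. No scaling moved the median of all genes by over 0.1. Deviations of same-numbered libraries from their group means showed little correlation (-0.019, -0.0187 and -0.0005). These values cannot tell whether the libraries were paired by animal or culture. A replicate block gave 17 members higher and 0 lower, and 1372 and 964 among all genes tested. Members that did not pass changed sign with small values: with upper-quartile factors Ebp (-0.0196), Nr1h2 (-0.0047), Fads2 (-0.025) and Acsl3 (-0.022); with library totals alone Mvk (-0.0135), Ebp (-0.043), Nr1h2 (-0.028), Mylip (-0.022), Fads1 (-0.019), Fads2 (-0.049) and Acsl3 (-0.045); Hsd17b7 without the low-count filter (0.0033) and with counts halved (0.0023). Leaving out 1 library gave ranges of -0.12 to 0.12 for Mvk, -0.084 to 0.069 for Pmvk, -0.067 to 0.33 for Tm7sf2, -0.063 to 0.049 for Hsd17b7, -0.022 to 0.050 for Ebp, -0.26 to 0.060 for Insig2, -0.017 to 0.078 for Nr1h2, -0.082 to 0.12 for Mylip, -0.26 to 0.068 for Abcg1, -0.066 to 0.13 for Fads1, -0.02 to 0.028 for Fads2 and -0.023 to 0.031 for Acsl3. For the log2 ratios the ranges were -0.072 to 0.12 (Srebf2 to Srebf1), -0.15 to 0.019 (Scd to Scd2) and -0.19 to 0.23 (Abca1 to Abcg1). On the gene's strand alone CCAAT was in 28.1% of member promoters, 20.9% of all windows and 21% of those of tested genes. The shorter CACNCCAC, added after the data were seen, was on either strand in 15.6% of member promoters and 5.8% of all windows. The cause of these changes was not tested.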

Other observations

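Genes that handle fatty acids beyond the 40 members moved in part. Of 34 listed, 28 could be tested. Their median log2 fold change was 0.02, and 7 (25%) rose and 0 fell, against 10.8% and 7.71% of all genes tested. The acyl-CoA synthetase gene Acsl4, which favours arachidonic acid, had 156, 154 and 161 CPM in static and 201, 214 and 206 CPM in shear libraries. The groups did not overlap, and it rose by 0.40 (edgeR adjusted p = 4.9e-07, SE 0.05). Its relative Acsl1 rose from 54.5 ± 2.92 to 71.0 ± 1.51 CPM (mean ± SD, n = 3 each), by 0.38 (edgeR adjusted p = 1.1e-05, SE 0.05), while Acsl3 and Acsl5 had log2 fold changes of 0.0046 and 0.0085, the latter named after its value was seen. Aacs, which turns the ketone body acetoacetate into acetoacetyl-CoA, a precursor shared with the sterol route, rose from 32.6 ± 1.36 to 44.9 ± 2.12 CPM (mean ± SD, n = 3 each), by 0.46 (edgeR adjusted p = 3.1e-06, SE 0.06). Dgat1, which makes triglycerides, rose by 0.34 (edgeR adjusted p = 6.6e-04, SE 0.07). The other genes that rose, named after their values were seen, were Cpt1a (0.35), Elovl1 (0.23) and Mlx (0.17).

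Per length, Scd was far below Scd2 in both groups: the log2 ratio of Scd to Scd2 was -4.01 ± 0.04 in static and -4.05 ± 0.19 in shear libraries (SD, n = 3 each, exact permutation p = 0.8). That of Abca1 to Abcg1 was 3.16 ± 0.36 and 3.18 ± 0.39 (SD, n = 3 each, exact permutation p = 0.8).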
